A study of Mus musculus and Homo sapiens with 8 samples.

Results

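The genes described here encode 10 receptors that turn small molecules from the diet, the bile and the environment into changes of transcription. They are Nr1i2 (PXR) and Nr1i3 (CAR), which sense drugs and other xenobiotics, and Ahr, which senses aryl hydrocarbons and tryptophan products. Vdr binds vitamin D and Rara binds retinoic acid, Nr1h3 and Nr1h2 encode the oxysterol receptors LXR alpha and LXR beta, and Nr5a2 encodes LRH-1, a phospholipid-binding receptor of sterol and bile acid metabolism. Rxra and Rxrb encode the retinoid X receptors, with which PXR, CAR, VDR, RAR and the LXRs pair on DNA. The members were chosen by gene symbol. All 10 were present among the 13359 distinct genes of the deposited expression table, and all 10 passed the filter on low values that left 12948 genes to be tested.

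Expression was measured by RNA-seq in small intestinal crypts of C57BL/6 mice aged 2 months that were untreated. The 2 control libraries carry the genotype label APCmin+, a truncating mutation of the Wnt pathway regulator Apc that leads to intestinal adenomas. The other 2 libraries are labelled APCmin+; Zmynd8IEC-/- and are called the labelled knockouts here. By that label they share the Apc mutation and also lack Zmynd8, a chromatin reader gene, in the intestinal epithelium. Each library pooled equal RNA masses of 3 mice. The Cre driver and the deleted exons are not named in the sources used here, nor is it said how the pools of a group differ. A p-value therefore sets the group difference only against the spread between these pools, estimated partly from other genes. The libraries held 43457253 to 47500049 reads on the listed genes. In FPKM (reads scaled by gene length and library total), Zmynd8 itself was at 6.94 and 4.73 in controls 1 and 2, against 7.30 and 7.65 in the labelled knockouts. At the level of whole genes the targeted gene therefore leaves the labels unchecked, and each direction below depends on them.

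Nuclear receptors are transcription factors with a DNA-binding zinc finger region and a pocket for a small ligand. Most members of the subfamilies described here occupy DNA with RXR, recruit corepressors when empty and coactivators when a ligand is bound, while LRH-1 binds DNA alone. PXR and CAR share many target genes, among them cytochrome P450, glutathione transferase and export pump genes, and the small intestine is, with the liver, the main site of PXR-driven drug metabolism. AhR belongs to another family, the bHLH-PAS factors. It waits in the cytoplasm with HSP90 and other chaperones and pairs with ARNT in the nucleus.

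Of the 10 receptor genes, Nr1i3, Nr1i2 and Nr1h3 had higher values in both labelled knockouts than in both controls, and for the other 7 the interval of the difference included 0. By limma on log2(FPKM + 1), 0 of the 10 passed an adjusted p under 0.05, a rule that called 0.726% of all genes tested. At an unadjusted p under 0.05 there were 3, all higher (7.49% of all genes tested were higher and 19.1% lower at that level). With voom on recovered read numbers 1 passed, namely Nr1i3, where 1.54% of all genes were called higher and 0.178% lower. The groups did not overlap for the 3 higher genes, as for 14.9% of all genes tested, and for Rara on the lower side, as for 48.5%. The median log2 fold change of the 10 was 0.04, against -0.15 over all genes tested. Scaling the libraries by median ratios shifted the latter by 0.15. All 10 receptor genes then had positive fold changes, and 7 of them were higher without overlap of the groups (28.2% of all genes), namely the same 3 with Vdr, Nr1h2, Rxra and Rxrb. None was lower without overlap (28% of all genes). By the q-value of the authors' deposited table under 0.05, 0 of the 10 passed, where 2.13% of the genes in it do. Calls depend on single libraries and on the filter: 94 genes were called in all, and the count was 0 without either labelled knockout, 1 without a filter on low values and 2 with a filter at a mean of 5 FPKM, and this bears on each call given below.

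**Figure D1:**
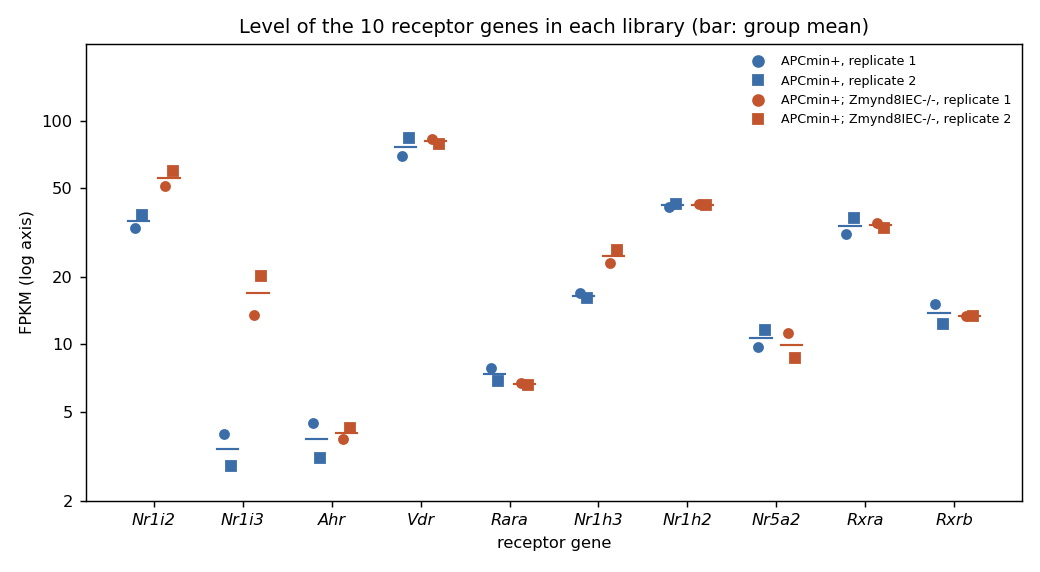
FPKM on a log axis for each receptor gene (columns) in the 2 APCmin+ control libraries (blue) and the 2 libraries labelled Zmynd8IEC-/- (orange), with circles for replicate 1, squares for replicate 2 and bars for group means. Nr1i3, Nr1i2 and Nr1h3 are separated between the groups, from 3.41 to 16.9 FPKM on average for Nr1i3.

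In the controls Vdr was the most abundant of the set at 76.6 ± 9.62 FPKM (SD, n = 2, as for all values given with ±). Nr1h2 followed at 41.9 ± 0.888 FPKM. Nr1i2 at 35.6 ± 3.29 and Rxra at 33.9 ± 3.90 FPKM came next, and the libraries of these last genes overlapped. Below them lay Nr1h3 at 16.5 ± 0.606, Rxrb at 13.8 ± 1.99, Nr5a2 at 10.7 ± 1.32 and Rara at 7.35 ± 0.699 FPKM, whose libraries did not overlap between neighbours. Ahr at 3.78 ± 0.940 and Nr1i3 at 3.41 ± 0.783 FPKM were lowest and overlapped each other. In the labelled knockouts the order differed mainly by Nr1i3, which stood in the sixth place in place of the last, above Rxrb, Nr5a2, Rara and Ahr. Nr1i2 stood second, above Nr1h2, in place of the third. FPKM is scaled by gene length, so these levels can be set side by side between genes.

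The gene with the largest difference of the set was Nr1i3, which encodes the constitutive androstane receptor CAR. It lies on chromosome 1 (171213932 to 171218845, plus strand). It had 3.97 and 2.86 FPKM in controls 1 and 2, against 13.6 and 20.2 FPKM in the labelled knockouts. Both labelled knockouts were above both controls, by 3.43-fold in the closest pairing and 7.07-fold in the widest. Within the groups the libraries differed 1.39-fold (controls) and 1.49-fold. The mean went from 3.41 ± 0.783 to 16.9 ± 4.70 FPKM, a log2 fold change of 2.01 by limma (95% interval 1.39 to 2.63, as for intervals below, SE 0.23, adjusted p = 0.0573). Of the 12948 genes tested, 40 had a larger one. In the authors' deposited table the gene has a p-value of 0.00159 and a q-value of 0.126, and 1.26% of the genes there are higher at a q-value under 0.05.

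The depth behind Nr1i3 was 417 and 328 reads in the controls and 1487 and 2282 in the labelled knockouts. In the library with the fewest reads the exact Poisson 95% interval was 2.56 to 3.19 FPKM, which covers counting error only. A stretch of 1044 bases of Nr1i3 overlaps Tomm40l, a mitochondrial import gene on the opposite strand, and whether counting used strand is not known from the sources used here. The value of Nr1i3 is therefore uncertain. Tomm40l had 6.41 and 6.41 FPKM in controls 1 and 2, against 8.02 and 10.7 FPKM in the labelled knockouts (log2 fold change 0.47, limma adjusted p = 0.150). It held 837, 914, 1091 and 1493 reads in the same order. The nearest listed genes without overlap, Pcp4l1 before and Fcer1g after Nr1i3, each had a log2 fold change of -0.09.

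Nr1i2 encodes PXR, the receptor for many drugs, steroids and bile acids. It lies on chromosome 16 (38248321 to 38294849, minus strand). It had 33.3 and 37.9 FPKM in controls 1 and 2, against 51.2 and 59.7 FPKM in the labelled knockouts. The groups did not overlap, and the smallest fold over the 4 pairings was 1.35. Limma put the log2 fold change at 0.62 (interval 0.30 to 0.95, SE 0.13, adjusted p = 0.0935). No other RefSeq gene overlaps it, and each library held 4059 to 7820 reads. The authors' deposited table gives it a p-value of 0.0291 and a q-value of 1.

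CAR transcripts were a larger share beside PXR transcripts in the labelled knockouts. Of the summed FPKM of Nr1i3 and Nr1i2, Nr1i3 made up 10.7% and 7.02% in controls 1 and 2, against 21.0% and 25.3% in the labelled knockouts. The groups did not overlap. An exact two-sided permutation test of 2 libraries against 2 cannot give a p below 0.333, so no p is given for this and the other ratios.

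Ahr lies on chromosome 12 (35497979 to 35534989, minus strand). It had 4.44 and 3.12 FPKM in controls 1 and 2, against 3.78 and 4.24 FPKM in the labelled knockouts. The groups overlapped, and the controls alone differed 1.43-fold. Its log2 fold change by limma was 0.08 (interval -0.37 to 0.53, SE 0.18, adjusted p = 0.786).

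Promoter windows are shown for the xenobiotic receptor genes with the largest differences, Nr1i3 and Nr1i2, and for Rxra, which encodes their common partner and had a fold change near 0. Each is 300 bases of the GRCm38.p6 build from RefSeq, from 250 bases before to 50 after RefSeq's gene start, 5′ to 3′ on the gene's strand. Capitals mark CG dinucleotides, the sites of DNA methylation in mammals. The windows are chr1:171213720-171214019 (plus strand), chr16:38294775-38295074 (minus strand) and chr2:27676951-27677250 (plus strand).
Nr1i3: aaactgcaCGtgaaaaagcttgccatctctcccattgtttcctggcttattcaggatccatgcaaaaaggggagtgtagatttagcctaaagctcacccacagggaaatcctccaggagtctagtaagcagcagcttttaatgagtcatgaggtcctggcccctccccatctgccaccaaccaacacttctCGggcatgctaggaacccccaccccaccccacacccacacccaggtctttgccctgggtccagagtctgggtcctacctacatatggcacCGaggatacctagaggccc
Nr1i2: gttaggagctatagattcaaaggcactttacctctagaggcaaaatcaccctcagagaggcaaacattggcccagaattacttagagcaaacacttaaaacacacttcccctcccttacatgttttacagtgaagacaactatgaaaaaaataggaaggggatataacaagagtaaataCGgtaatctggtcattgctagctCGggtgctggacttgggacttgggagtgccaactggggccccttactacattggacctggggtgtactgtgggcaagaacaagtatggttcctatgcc
Rxra: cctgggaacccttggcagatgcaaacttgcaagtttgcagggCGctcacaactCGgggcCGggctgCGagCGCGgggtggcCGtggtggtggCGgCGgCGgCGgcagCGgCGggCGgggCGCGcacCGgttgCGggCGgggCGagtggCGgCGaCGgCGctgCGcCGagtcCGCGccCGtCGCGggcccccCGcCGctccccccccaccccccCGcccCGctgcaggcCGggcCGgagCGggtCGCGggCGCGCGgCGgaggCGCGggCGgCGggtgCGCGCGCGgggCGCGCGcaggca

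The Nr1i3 window holds 3 CG dinucleotides, that of Nr1i2 holds 2 and that of Rxra 55, against a median of 7 over the 32851 promoter windows of the table. Of the 9 receptor genes with a window, Nr5a2 with 2 and Nr1h3 with 8 were the others under 15, and Vdr, Nr1h2, Rara and Rxrb had 15, 19, 20 and 37. The counts do not sort the genes by their difference, since Nr5a2 overlapped between the groups and Nr1h3 lies above that median. For Nr1h3, Rara and Rxra the RefSeq start lies so far inside the gene span of the deposited table that the window does not reach that span's first base, so these windows may not hold the start used in crypts. The nuclear receptor half-site AGGTCA, searched on both strands, was in the Nr5a2 window alone of the 9, and in 16.3% of all windows. This half-site repeated in the same direction with 3 or 4 bases between was in 0 of the 9, and in 2 and 5 of all 32851 windows. The palindromic E-box CACGTG begins 244 bases before the Nr1i3 start, is also in the Rara window and is in 7.15% of all windows. These are matches of letters in short windows, and distal elements were not searched.

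Among the vitamin receptors Vdr, on chromosome 15 (97854427 to 97908296, minus strand), had 69.8 and 83.4 FPKM in controls 1 and 2, against 82.8 and 78.5 FPKM in the labelled knockouts. Both labelled knockouts lay within the range of the controls. Limma put the log2 fold change at 0.08 (interval -0.24 to 0.40, SE 0.12, adjusted p = 0.702). With 13591 to 17714 reads per library, counting alone gives a standard deviation of at most 0.858%, while the controls differed 1.19-fold. Predicted noncoding genes overlap Vdr on the opposite strand in RefSeq. Rara, on chromosome 11 (98927813 to 98974942, plus strand), had 7.84 and 6.85 FPKM in controls 1 and 2, against 6.75 and 6.60 FPKM in the labelled knockouts. The groups did not overlap, though by a narrow gap. Its log2 fold change by limma was -0.12 (interval -0.41 to 0.17, SE 0.11, adjusted p = 0.516), and with median-ratio scaling it was 0.03. RefSeq places the predicted gene Gm46294 across part of Rara, so reads could have been shared.

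Of the oxysterol receptor genes, Nr1h3 was higher in the labelled knockouts and Nr1h2 overlapped between the groups. Nr1h3, which encodes LXR alpha, the form typical of liver, intestine and macrophages, lies on chromosome 2 (91184061 to 91202829, minus strand). It had 16.9 and 16.1 FPKM in controls 1 and 2, against 23.0 and 26.5 FPKM in the labelled knockouts. The groups did not overlap, with folds of 1.36 to 1.65 over the 4 pairings against 1.05 between the controls. Limma put the log2 fold change at 0.56 (interval 0.28 to 0.83, SE 0.11, adjusted p = 0.0904), and the q-value in the authors' deposited table is 1. Acp2 on the opposite strand overlaps it by 18 bases and had a log2 fold change of 0.01.

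Nr1h2, which encodes the widely expressed LXR beta, lies on chromosome 7 (44549616 to 44553968, minus strand). It had 41.3 and 42.5 FPKM in controls 1 and 2, against 42.3 and 41.9 FPKM in the labelled knockouts. It had the smallest standard error of the 10 genes, and the groups overlapped. Its log2 fold change by limma was 0.01 (interval -0.22 to 0.24, SE 0.09, adjusted p = 0.967). Of the summed FPKM of both LXR genes, Nr1h3 made up 29.1% and 27.4% in controls 1 and 2, against 35.2% and 38.7% in the labelled knockouts, without overlap. Nr1h2 was the more abundant transcript in all 4 libraries.

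Nr5a2 (LRH-1), on chromosome 1 (136842562 to 136960448, minus strand), had 9.77 and 11.6 FPKM in controls 1 and 2, against 11.2 and 8.71 FPKM in the labelled knockouts. The groups overlapped, and the labelled knockouts alone differed 1.29-fold. Limma put the log2 fold change at -0.10 (interval -0.50 to 0.31, SE 0.16, adjusted p = 0.704), and with median-ratio scaling it was 0.06.

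Both common partner genes had overlapping groups on the deposited scale. Rxra, on chromosome 2 (27676445 to 27763319, plus strand), had 31.2 and 36.7 FPKM in controls 1 and 2, against 34.9 and 33.2 FPKM in the labelled knockouts, and a log2 fold change of 0.01 (interval -0.29 to 0.31, SE 0.12, limma adjusted p = 0.965). Rxrb, on chromosome 17 (34031812 to 34038403, plus strand), had 15.2 and 12.3 FPKM in controls 1 and 2, against 13.4 and 13.5 FPKM in the labelled knockouts, and a log2 fold change of -0.03 (interval -0.35 to 0.29, SE 0.12, limma adjusted p = 0.898). In both genes the labelled knockouts lay between the controls. With median-ratio scaling Rxra and Rxrb gave 0.18 and 0.14 and the labelled knockouts lay above both controls, so these small values move with the scaling. Rxrg was not analysed here. The 6 receptor genes of the set whose products pair with RXR are Nr1i2, Nr1i3, Vdr, Nr1h2, Nr1h3 and Rara. Nuclear receptor genes outside the set were not summed. The summed FPKM of these 6 genes was 3.74 and 3.87 times that of Rxra and Rxrb in the controls. In the labelled knockouts it was 4.55 and 5.01 times. This ratio does not depend on the scaling of the libraries and its groups did not overlap.

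**Figure D2:**
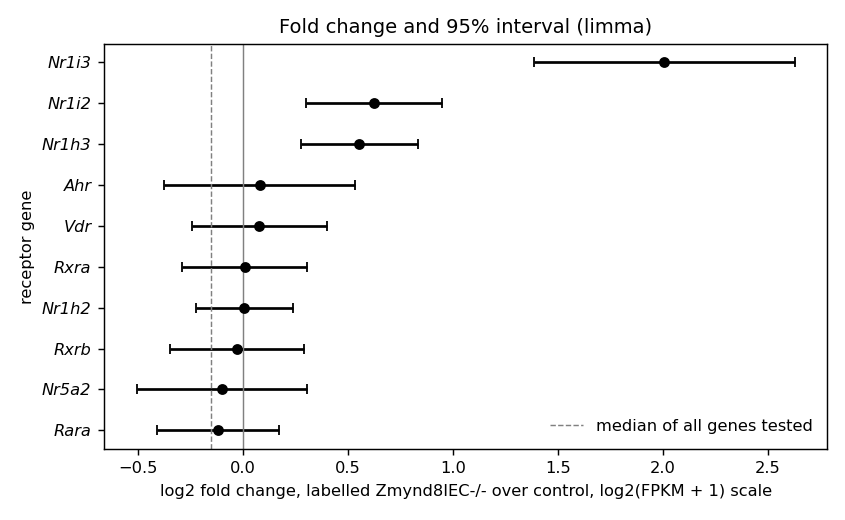
Log2 fold change of each receptor gene, libraries labelled Zmynd8IEC-/- over controls on the log2(FPKM + 1) scale, with 95% intervals from limma and a dashed line at the median of all genes tested (-0.15). The intervals of Nr1i3, Nr1i2 and Nr1h3 lie above 0, at 2.01, 0.62 and 0.56, and the other 7 include 0.

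Within the nuclear receptor family Nr1i3 had the largest positive log2 fold change of the 30 genes tested. Of the 21 tested nuclear receptor genes outside the set, 1 passed the threshold (0.726% of all genes), namely Ppara, which encodes the fatty acid receptor PPAR alpha. Ppara rose from 4.86 ± 0.268 to 10.2 ± 0.493 FPKM (log2 fold change 0.93, SE 0.11, limma adjusted p = 0.0470). Hnf4g, an enterocyte transcription factor gene, stood at 84.8 ± 12.1 and 131 ± 1.43 FPKM (0.63, adjusted p = 0.0941). The circadian repressor gene Nr1d2 gave 0.37 (adjusted p = 0.130). On the other side, named after their values were seen, lay Hnf4a at -0.37 (limma adjusted p = 0.193) and Nr1h4 at -0.89 (adjusted p = 0.252). Hnf4a was the most abundant gene of the family at a mean of 215 FPKM. The median of those 21 genes was -0.0026, with 10 positive and 11 negative (16 positive after median-ratio scaling).

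**Figure D3:**
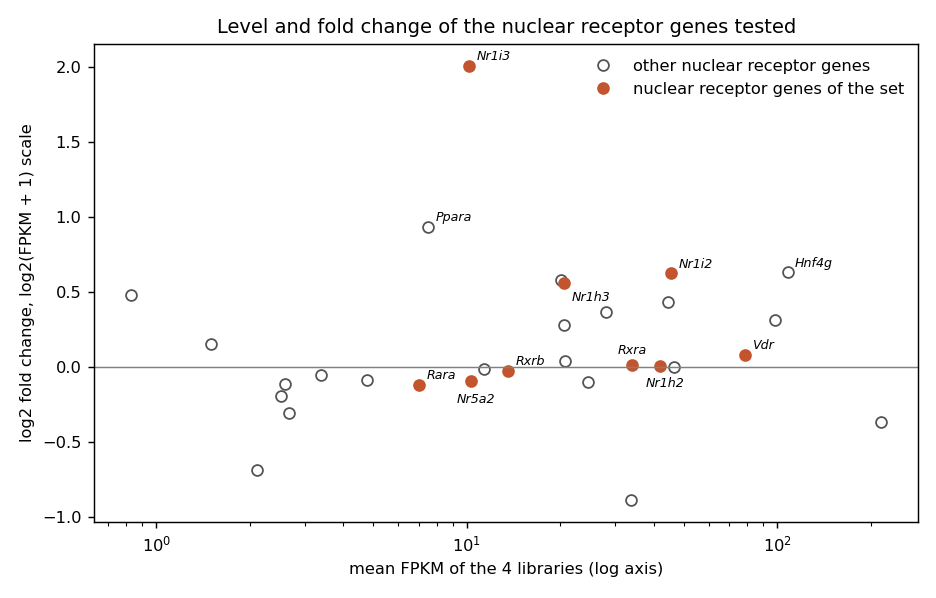
Log2 fold change (log2(FPKM + 1) scale) against mean FPKM of the 4 libraries on a log axis, for the 9 nuclear receptor genes of the set (filled) and the 21 others tested (open); Ahr is no nuclear receptor and is not drawn. Nr1i3 lies highest at 2.01, with Ppara next at 0.93.

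The genes outside the set whose profile over the 4 libraries lay nearest to Nr1i3 were Slc25a45, Clca3a1 and Slc2a7, by Euclidean distance between log2(FPKM + 1) values centred on each gene's mean (0.08, 0.12 and 0.14 log2 units). Slc25a45, a mitochondrial carrier gene, stood at 12.6, 9.18, 37.3 and 52.7 FPKM, with the controls first. Slc2a7, a hexose transporter gene, rose from 6.75 ± 1.53 to 31.0 ± 5.59 FPKM (log2 fold change 2.05, SE 0.20, limma adjusted p = 0.0417). Clca3a1, a gene of the chloride channel accessory family, was at 3.87 ± 0.723 and 18.3 ± 6.26 FPKM (1.95, adjusted p = 0.0719). The likeness rests on 4 libraries. These genes were chosen for their likeness to Nr1i3 in the same libraries, so their fold changes and p-values follow from that choice and are not independent evidence.

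Established target genes of PXR and CAR were mostly higher in the labelled knockouts. All 18 genes of this list were tested and 16 had positive fold changes, with a median log2 fold change of 1.15 (18 were positive after median-ratio scaling). In 14 of the 18 the labelled knockouts were higher without overlap of the groups, as for 14.9% of all genes tested. By limma 5 passed the threshold, all higher, where 0.595% of all genes tested were called higher. The list was written with earlier results of these libraries known, some of its members among them, so its count is not independent evidence of its direction. Without control replicate 2, 17 of the 18 genes of the list had positive fold changes. Calls in the list numbered 8 with voom, where 1.54% of all genes were called higher. Calls in it numbered 3 without the variance trend, where 41 of 12948 genes were called higher. They numbered 0 without either labelled knockout, without the filter on low values, or with a filter at a mean of 5 FPKM.

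Cyp3a11, a P450 gene of drug oxidation and a classic PXR target, had 29.1 and 20.9 FPKM in controls 1 and 2, against 147 and 186 FPKM in the labelled knockouts, and rose by a log2 fold change of 2.70 (SE 0.21, limma adjusted p = 0.0412). Abcc2, which encodes the export pump MRP2, rose from 42.5 ± 1.92 to 98.6 ± 1.35 FPKM (1.19, SE 0.10). The glutathione transferase genes Gstm3 and Gsta1 rose from 14.5 ± 0.149 to 51.0 ± 9.34 FPKM (1.73, SE 0.15) and from 9.26 ± 0.710 to 21.7 ± 0.502 FPKM (1.15, SE 0.10). Cyp3a13, chosen after its values were seen, rose from 159 ± 7.04 to 358 ± 41.9 FPKM (1.16, SE 0.13). Cyp2b10, the classic CAR target and also chosen after its values were seen, did not pass. It had 6.45 and 3.61 FPKM in controls 1 and 2, against 44.2 and 81.1 FPKM in the labelled knockouts (3.38, SE 0.42, limma adjusted p = 0.0765). The P450 and glutathione transferase genes have close relatives between which reads could have been split.

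Markers of absorptive enterocytes were higher in the labelled knockouts, as were Nr1i3, Nr1i2, Nr1h3 and the PXR and CAR targets. All 18 enterocyte markers had positive fold changes, 3 passed (0.595% of all genes were called higher), and the median was 0.86. Their summed level was 15098 to 17160 FPKM in the controls and 24331 to 28154 FPKM in the labelled knockouts, and no marker was at 0 in all libraries. Of the 7 proximal enterocyte markers tested 6 were positive. The 8 such markers present in the deposited table had summed levels of 190 to 334 FPKM in the controls and 1019 to 1750 FPKM in the labelled knockouts. All 12 proliferation markers were negative with a median of -0.52, and their summed level was 266 to 285 FPKM in the controls and 193 to 195 FPKM in the labelled knockouts. The part of these markers in the receptor results was not tested. In bulk RNA a change in the share of a cell type and a change of RNA per cell cannot be told apart. Markers of ileal enterocytes spread widely inside each group, with summed levels of 2153 and 8918 FPKM in the controls and 3074 and 563 FPKM in the labelled knockouts. All 7 ileal markers had negative fold changes, also after median-ratio scaling, with a median of -0.89, and 0 passed by limma. The groups did not overlap for 2 of the 7, both lower, as for 48.5% of all genes tested. Markers of macrophages, cells known to express Nr1h3, had summed levels of 170 to 190 FPKM and 153 to 175 FPKM, and the groups overlapped. Markers of T and innate lymphocytes, cells known to express Ahr, had overlapping levels of 198 to 310 FPKM and 215 to 236 FPKM. All 8 Paneth cell and all 5 tested tuft cell markers had negative fold changes (medians -1.06 and -1.39, with 1 Paneth cell marker positive after median-ratio scaling), and 2 of each list passed (0.131% of all genes were called lower). The tuft cell markers Sh2d7, Sh2d6, Dclk1 and Avil reached 1 FPKM in the controls alone and met the filter only through them. Their direction was thus fixed by being tested, and the tuft cell calls, Sh2d7 and Sh2d6, are not independent evidence of it. Markers of crypt base stem cells and Paneth cells, which define crypts, were present, with summed levels of 247 to 255 and 7738 to 10042 FPKM in the controls and 163 to 166 and 4814 to 6783 FPKM in the labelled knockouts.

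**Figure D4:**
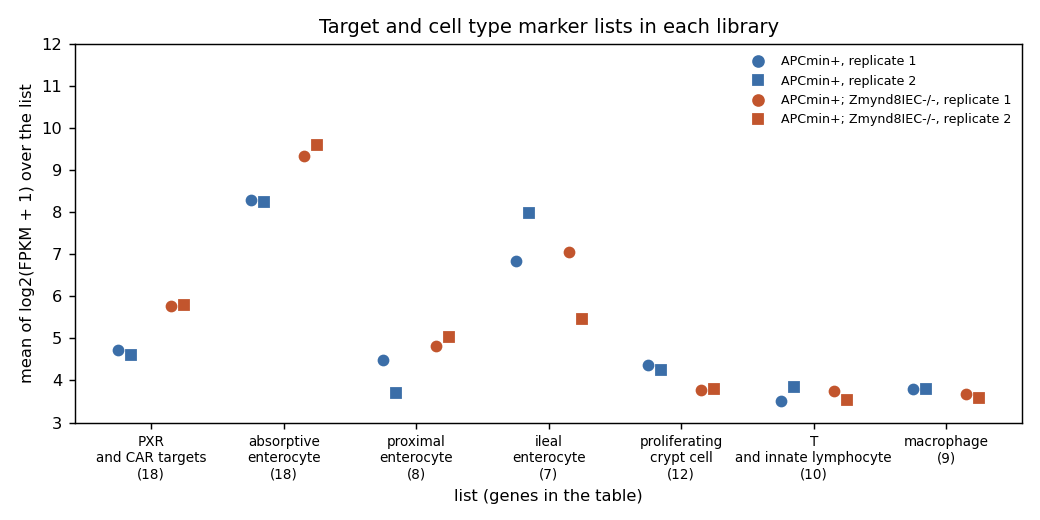
Mean of log2(FPKM + 1) over the PXR and CAR target list and over 6 cell type marker lists, in each of the 4 libraries (blue for controls, orange for libraries labelled Zmynd8IEC-/-, circles for replicate 1 and squares for replicate 2). PXR and CAR targets (4.73 and 4.62 against 5.78 and 5.79) and absorptive enterocyte markers (8.30 and 8.25 against 9.33 and 9.61) separate the groups upwards, and ileal markers do not separate them.

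Targets of LXR lay on both sides of 0. Of 16 genes tested 4 were positive and 12 negative, with a median log2 fold change of -0.14 (8 and 8 after median-ratio scaling), and by limma 0 passed (2 higher and 3 lower at an unadjusted p under 0.05, against 7.49% and 19.1% of all genes, and 1 lower with voom, against 0.178%). The sterol exporter genes Abcg5 and Abcg8, which act as a pair at the brush border, stood at 95.2 ± 2.12 and 130 ± 2.66 FPKM (log2 fold change 0.45, adjusted p = 0.0980) and at 51.8 ± 4.21 and 67.0 ± 2.54 FPKM (0.37, adjusted p = 0.133). They overlap each other on opposite strands, so their values are uncertain. The lipogenic genes Fasn and Scd2 of the list lay on the other side. Fasn, for fatty acid synthase, stood at 20.1 ± 3.01 and 9.60 ± 0.125 FPKM (-0.99, adjusted p = 0.0573), and the desaturase gene Scd2 gave -2.20 (adjusted p = 0.0737). Fasn and Scd2 are also targets of the sterol-regulated factors SREBP.

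Genes around vitamin D and calcium uptake had mostly negative fold changes, while Vdr was near 0. Of 6 genes tested 5 were negative, with a median of -0.81, and by limma 0 passed (1 higher and 4 lower at an unadjusted p under 0.05, against 7.49% and 19.1% of all genes, and 0 with voom). Slc30a10, a manganese exporter gene induced by vitamin D, was the positive one at 6.75 ± 1.39 and 10.5 ± 1.27 FPKM (0.58, adjusted p = 0.130). It overlaps the noncoding gene Gm2061 on the opposite strand by 721 bases. The claudin genes Cldn2 and Cldn12, for paracellular calcium passage, gave -1.39 (adjusted p = 0.141) and -0.38 (adjusted p = 0.133). S100g, for the calcium carrier calbindin-D9k, had 43.1 and 12.5 FPKM in controls 1 and 2, against 4.65 and 3.21 FPKM in the labelled knockouts (-2.32, SE 0.69, adjusted p = 0.167), and it overlaps Ctps2 on the opposite strand. Its control libraries differed more from each other than control replicate 2 did from either labelled knockout in FPKM. Trpv6 and Cyp24a1 were not analysed here.

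Retinoid genes lay on both sides of 0. Of 14 tested, 9 were positive and 5 negative, with a median of 0.18 (10 positive after median-ratio scaling), and by limma 0 passed (3 higher and 1 lower at an unadjusted p under 0.05, against 7.49% and 19.1% of all genes). With voom 2 were called higher, Rdh7 and Adh1, against 1.54% of all genes. The retinol dehydrogenase gene Rdh7 had 11.7 and 5.07 FPKM in controls 1 and 2, against 86.7 and 114 FPKM in the labelled knockouts (3.52, SE 0.43, adjusted p = 0.0765). Adh1, for an alcohol and retinol dehydrogenase, gave 2.62 (adjusted p = 0.0770), and Rbp2, the enterocyte retinol carrier gene, 1.61 (adjusted p = 0.104). Tgm2, a retinoic acid-induced transglutaminase gene, gave -0.64 (adjusted p = 0.184). The other retinoic acid receptor genes Rarb and Rarg, named after their values were seen, were low, at 0.319 to 2.41 and 1.23 to 3.88 FPKM over the 4 libraries.

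**Figure D5:**
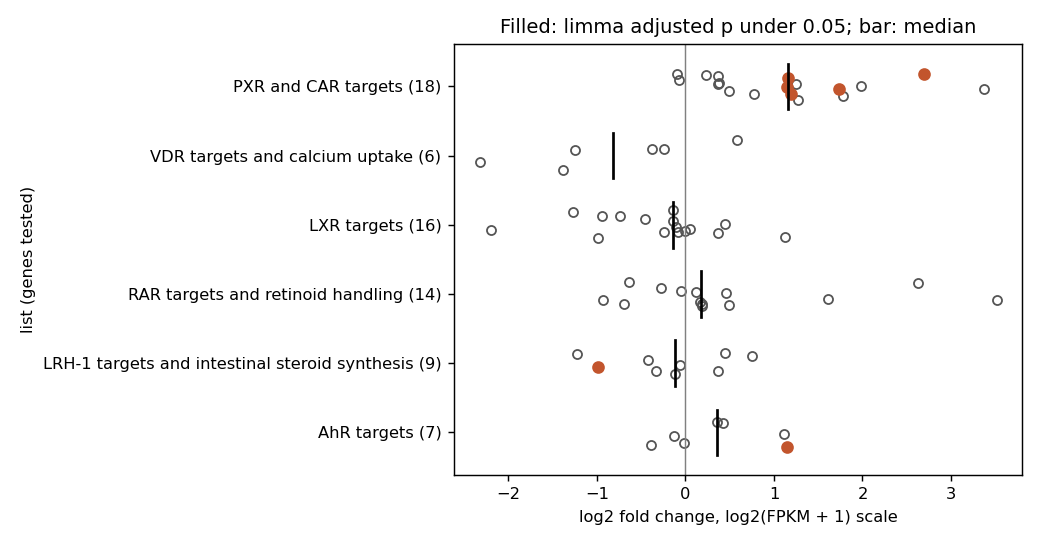
Log2 fold change (log2(FPKM + 1) scale) of each tested gene in 6 lists of receptor targets, with the number tested in brackets, filled points for limma adjusted p under 0.05 and a bar at each list's median. The PXR and CAR list has its median at 1.15 and 5 filled points, and the VDR list has its median at -0.81.

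Among AhR targets 1 of 7 tested genes passed, namely Gsta1, which the PXR and CAR list also holds, and with voom 2 passed, Gsta1 and Cyp1a1. Over all genes 0.595% were called higher by limma and 1.54% with voom. Of the 7 genes 4 were positive and 3 negative, with a median of 0.35 (6 positive after median-ratio scaling). Cyp1a1, the P450 gene used as a readout of AhR activity, was low, at 0.297 and 0.294 FPKM in controls 1 and 2, against 1.76 and 1.87 FPKM in the labelled knockouts (1.12, SE 0.13, limma adjusted p = 0.0512). Behind these values were 38 and 41 reads, against 234 and 257. Cyp1a1 met the filter of 1 FPKM in 2 libraries only through the labelled knockouts. Its direction was thus fixed by being tested, and its call with voom is not independent evidence of it. Tiparp, a feedback inhibitor gene of AhR, stood at 8.33 ± 0.260 and 11.5 ± 0.764 FPKM (0.42, adjusted p = 0.109), and Nfe2l2, for the antioxidant factor NRF2, gave 0.35 (adjusted p = 0.203). The nuclear partner gene Arnt gave -0.11 (adjusted p = 0.524). The chaperone genes Hsp90ab1 and Ptges3 gave -0.46 (adjusted p = 0.180) and -0.29 (adjusted p = 0.211), and Dnajc7, which overlaps other genes on the opposite strand, gave -0.11. Of the 7 partner and chaperone genes tested 6 were negative (2 after median-ratio scaling), and 0 passed by limma (0 higher and 1 lower at an unadjusted p under 0.05, where 19.1% of all genes were lower, and 0 with voom).

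LRH-1 targets had 1 call of 9 tested, a lower one, where 0.131% of all genes were called lower. Ccnd1, for the cell cycle regulator cyclin D1, fell from 33.3 ± 1.38 to 16.2 ± 1.40 FPKM (-0.99, SE 0.10, limma adjusted p = 0.0438), it overlaps another gene on the opposite strand, and it is also a target of Wnt signalling. Apoa1, for the main protein of high-density lipoprotein, stood at 4321 ± 108 and 7281 ± 991 FPKM (0.75, adjusted p = 0.101). The list was positive in 3 and negative in 6 genes, with a median of -0.12 (5 positive after median-ratio scaling). The enzyme genes of intestinal steroid synthesis Cyp11a1 and Cyp11b1 were not analysed here.

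Coactivator and corepressor genes, which carry the receptors' effect to chromatin, were near the level of all genes. Of 18 tested 6 were positive and 12 negative, with a median of -0.09 (11 positive after median-ratio scaling), and by limma 0 passed (1 higher and 3 lower at an unadjusted p under 0.05, against 7.49% and 19.1% of all genes, and 0 with voom). Ppargc1a, for the metabolic coactivator PGC-1 alpha, stood at 3.90 ± 0.733 and 6.08 ± 0.547 FPKM (0.54, adjusted p = 0.130). The arginine methyltransferase genes Prmt1 and Carm1, whose products are receptor coactivators, had log2 fold changes of -0.60 (adjusted p = 0.0931) and -0.32 (adjusted p = 0.143), and Carm1 overlaps Yipf2 on the opposite strand. Tbl1x, for a subunit of the NCoR corepressor complex, stood at 16.5 ± 0.593 and 11.6 ± 0.897 FPKM (-0.48, adjusted p = 0.0959).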

How the data were processed

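RNA-seq libraries of small intestinal crypts, 2 per genotype and each from 3 pooled mice, were compared. The columns that the authors deposited hold a value per gene and library, means by group, a log2 ratio of the means, and p-values with q-values, per the file headers, which name no unit. The deposited values were taken as FPKM, since 1 total per library and 1 length per gene turned all of them into whole reads in 13359 of 13359 genes. The tolerance was 0.002 reads, and wider for the largest read numbers. In the submitters' processing notes HISAT2, BWA, SICER, mm10 and hg38 are listed with no role. Neither the counting tool and annotation nor the test behind the deposited p-values is known from these sources. Exact repeats (168 of 13527 entries) were dropped, 0 columns of single samples were unused, and 4 ChIP-seq libraries were not analysed here.

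A gene was tested (12948 in all) if 2 or more libraries had 1 FPKM or more. Tests used limma 3.58.1 under R 4.3.3 on log2(FPKM + 1), with genotype as the term, a variance trend, robust moderation, 2 residual degrees of freedom and Benjamini-Hochberg adjustment over all genes tested, at a threshold of 0.05. Fold changes on this scale understate changes of low genes. Of the tests named in the design, one for raw counts and this one, the unit called for the latter. The fit and the recovery of reads were tested on simulated data. Alternatives were another pseudocount, other filters and scalings, no trend, a replicate block, voom on recovered reads and leaving out each library. Named genes were the 10 receptors, Zmynd8, up to 4 genes of smallest p from each list and the 3 genes nearest in profile to the receptor of largest fold change; not every gene that the rule covers is reported here. The members and lists were chosen with earlier results of these data known. Coordinates are those of the deposited table, and promoter sequences are from RefSeq (GRCm38.p6).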

Additional observations from a re-analysis of the deposited data

How the results depend on the processing

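The number of genes past the threshold was 94, and it was 1 without a filter on low values, 2 with a filter at a mean of 5 FPKM, 50 without the variance trend, 222 with voom on recovered reads and 0 with a replicate block. Leaving out a library gave 0 to 616 (616 without control replicate 2, 0 without either labelled knockout); the lone library of a group was then assumed to vary like the other group. Of the receptor genes 0 passed, except for 1 with voom (Nr1i3, adjusted p = 0.0487); leaving out a library gave 0 in each case. Over the 12 alternatives the log2 fold change of Nr1i3 ran from 1.74 to 2.47 (adjusted p 0.0487 to 0.283), that of Nr1i2 from 0.51 to 0.81 (0.0598 to 0.554) and that of Nr1h3 from 0.46 to 0.75 (0.0610 to 0.554), all positive.

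Of the genes called, 77 were higher and 17 lower, against 60 and 4 with median-ratio scaling and 61 and 5 with quantile normalization. Receptor genes near 0 changed sign with the scaling. With median-ratio scaling, quantile normalization and voom, the log2 fold change of Rara was 0.035, 0.049 and 0.036, that of Nr5a2 0.061, 0.056 and 0.063, and that of Rxrb 0.14, 0.10 and 0.14. Leaving out each library in turn, Ahr ran from -0.12 to 0.28, Vdr from -0.048 to 0.21, Nr1h2 from -0.014 to 0.028, Nr5a2 from -0.27 to 0.067, Rxra from -0.11 to 0.12 and Rxrb from -0.17 to 0.11.

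The replicate numbers were not taken to pair the libraries. Deviations of same-numbered libraries from their group means had a Pearson's r of 0.0452 across 12948 genes, which are not independent replicates. With the replicate block 0 of the receptor genes and 0 genes in all passed, with 1 residual degree of freedom. With 2 pooled libraries a group, a change of the size of Nr1i2 or Nr1h3 did not reach the threshold at this spread, which does not show that these genes were unchanged.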
